A study of Mus musculus with 16 samples.

Results

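A set of 10 genes of glucocorticoid signalling was followed in femoral cortical bone. They are the glucocorticoid receptor Nr3c1, the cortisone-activating enzyme Hsd11b1, and 8 genes known to be induced by the hormone, Fkbp5, Tsc22d3, Zbtb16, Sgk1, Dusp1, Klf9, Mt1 and Mt2. The rule takes the genes by name and uses no measured value, and each symbol was found once among the 36829 features measured. All 10 had a mean above the minimum of 0.5 RPKM (reads per kilobase of transcript, scaled to a fixed total of reads in each library) that 16973 features reached. The bones came from 16 female C57Bl/6 mice of 11 weeks, 8 under normal weightbearing (Control) and 8 after a week of hindlimb unloading (HLU), in which a tail harness keeps the hind limbs off the floor. No allele, transgene or drug is named for either group, apart from the anaesthetic used when the harness was fitted, and each mouse gave 1 library. The comparison asks whether transcripts of the glucocorticoid response differed after HLU, and which of the genes rose and fell together from mouse to mouse.

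Corticosterone, the glucocorticoid of mice, enters cells and binds Nr3c1, which is held ready by Hsp90, Hsp70 and their cochaperones. The bound receptor moves to the nucleus and raises transcription at glucocorticoid response elements, or lowers the activity of other factors such as NF-kappaB and AP-1. Hsd11b1 regenerates active hormone inside the cell with NADPH supplied by H6pd, whereas Hsd11b2 inactivates it. In bone, an excess of the hormone is known for slowing osteoblasts, for the death of osteoblasts and osteocytes, and for bone loss, while in the circulation it raises neutrophil counts and lowers lymphocyte counts.

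Whole bone RNA is a mixture. The marrow had been flushed from the shaft, and the osteocyte markers were present, with 9 of 9 measured and a summed level of 190 to 619 RPKM in Control and 276 to 633 RPKM in HLU. Marrow transcripts were nonetheless abundant, with 9 of 13 granulocyte markers measured, summing to 18085 to 38694 RPKM in Control and 12820 to 45620 RPKM in HLU. For 11 of 14 erythroid markers the sums were 3139 to 8808 RPKM in Control and 1706 to 4585 RPKM in HLU. None of these markers was at 0 in any mouse. In such tissue, fewer cells of a type and less RNA per cell cannot be told apart. The deposited values carried library divisors of 7067512 to 21363584 reads, smallest in Control 2, and the genes rested on 14 to 4833 reads in a mouse.

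The promoters of Sgk1, Mt2 and Mt1 are shown for their matches to elements known for the response to the hormone and to metal ions. Each runs from 250 bases before to 50 bases after a RefSeq start site in GRCm38.p6, 5′ to 3′ on the gene's plus strand. The Sgk1 promoter (chr10:21993640-21993939) has in capitals its match to the palindromic glucocorticoid response element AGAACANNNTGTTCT, which begins at position -189 from the start site and itself holds AGAACA once on each strand. The promoters of Mt2 (chr8:94172368-94172667) and Mt1 (chr8:94178839-94179138) have in capitals the core of the metal response element, TGCACNC or TGCGCNC on either strand, the element bound by the zinc sensor Mtf1.
Sgk1: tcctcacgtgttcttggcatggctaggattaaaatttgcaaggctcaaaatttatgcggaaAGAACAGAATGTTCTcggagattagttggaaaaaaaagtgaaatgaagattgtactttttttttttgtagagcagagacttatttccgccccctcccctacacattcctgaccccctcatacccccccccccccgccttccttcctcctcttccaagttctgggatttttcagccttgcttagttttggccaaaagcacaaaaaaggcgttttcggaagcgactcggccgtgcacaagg
Mt2: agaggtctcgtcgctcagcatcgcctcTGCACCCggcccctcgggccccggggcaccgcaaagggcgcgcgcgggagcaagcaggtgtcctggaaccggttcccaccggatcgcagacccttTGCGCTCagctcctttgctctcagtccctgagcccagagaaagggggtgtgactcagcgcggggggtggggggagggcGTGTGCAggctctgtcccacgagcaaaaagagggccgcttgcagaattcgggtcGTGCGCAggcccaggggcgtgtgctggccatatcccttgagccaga
Mt1: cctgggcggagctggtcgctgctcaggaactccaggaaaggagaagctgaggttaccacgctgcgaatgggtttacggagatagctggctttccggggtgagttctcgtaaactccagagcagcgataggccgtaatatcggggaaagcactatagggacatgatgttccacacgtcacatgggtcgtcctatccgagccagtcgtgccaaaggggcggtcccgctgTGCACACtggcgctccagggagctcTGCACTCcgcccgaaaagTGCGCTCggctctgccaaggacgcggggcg

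RefSeq promoters were searched for 8 of the 10 genes, all but Nr3c1 and Zbtb16. The search of the set left out chromosome 18, where Nr3c1 lies, while the counts over all promoters did not. It covered 15 promoters, and the palindrome was in 1 of them, the Sgk1 promoter shown. The other promoters of Sgk1 and those of Tsc22d3 did not hold it. The palindrome was in 3 of all 32851 mouse promoters of this length, or 0.00913%. The metal core occurred 4 times in the Mt2 promoter and 3 times in that of Mt1, whereas 25.7% of all promoters held it at least once, 1.97% at least 3 times and 0.517% at least 4 times. A match is a string of letters and not a known site of binding, and it says nothing of elements outside the window. Its part in the covariation between mice was not tested.

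No gene of the set changed past the threshold after HLU. At the study's criterion, an adjusted p under 0.1 with a 1.2-fold change, 0 of 10 genes were called by limma, the lowest adjusted p being 0.744, and the background was 0% of 16973 features. Limma-voom on the recovered reads also called 0 of the 10 and 0 of all features. The study itself, testing with DESeq2, reported some genes in each direction at this criterion. The reason for the difference was not tested. At an unadjusted p under 0.05 with a 1.2-fold change, 0 of 10 were called, beside a background of 5.87%, made up of 1.11% of features higher in HLU and 4.76% lower. At an unadjusted p under 0.05 with any fold, 0 of 10 passed, beside 6.18% of features. In 0 of 10 did the groups fail to overlap, as they did in 0.0295% of features. The log2 fold change was above 0 for 5 genes and below 0 for 5, with a median of 0.034 where all features had a median of -0.10. Rescaling the libraries by median of ratios moved these medians to 0.13 and -0.012 and turned Dusp1 to 0.073. Under quantile normalization Dusp1, Hsd11b1 and Fkbp5 were also above 0, at 0.092, 0.025 and 0.0053.

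**Figure D1:**
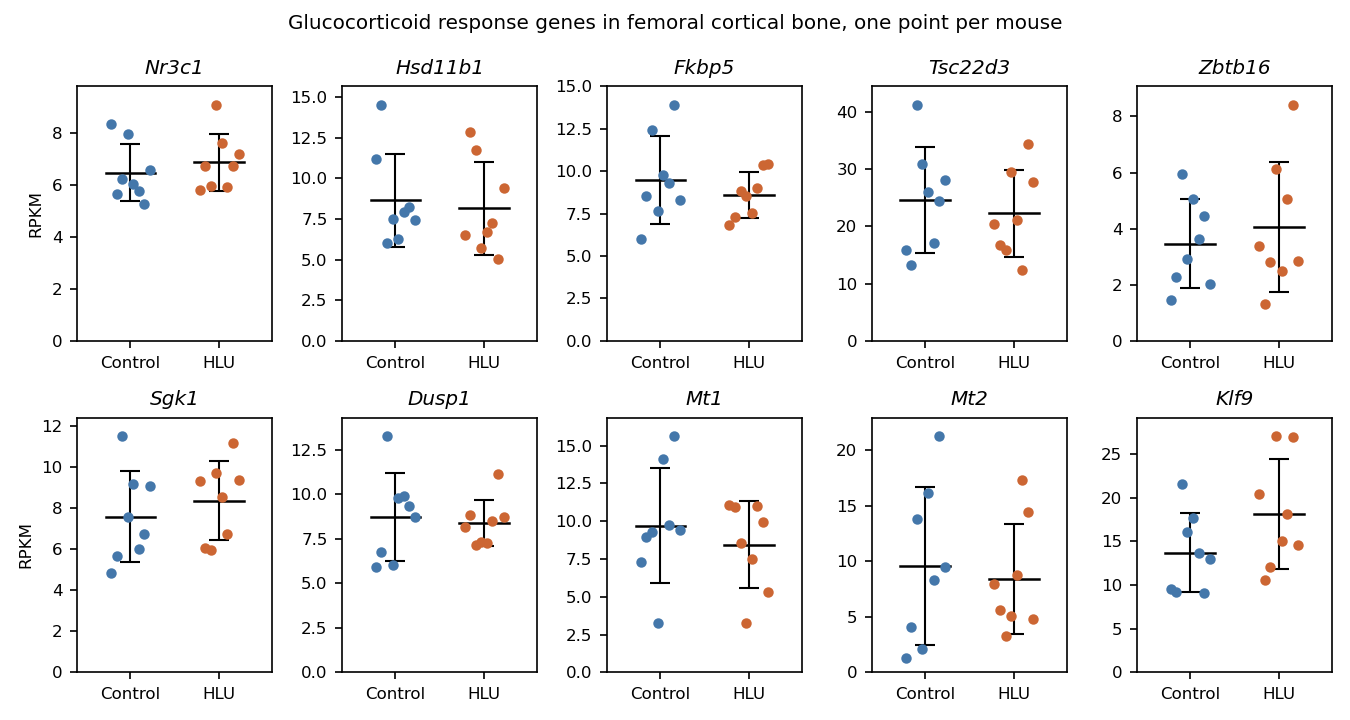
RPKM of each gene (y axis, each panel from 0) in 8 Control and 8 HLU mice, 1 point a mouse, with the mean (line) and SD (bars). The groups overlap in every panel, Mt2 spans 1.28 to 21.2 RPKM within the Control mice, and 2 HLU mice lie above all Controls for Klf9.

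The receptor was the steadiest of the set. Nr3c1 measured 5.30, 6.15 and 8.38 RPKM at the lowest, median and highest Control mouse and 5.82, 6.74 and 9.10 RPKM in HLU. The ranges nearly coincide, with only HLU 4 above every Control. The means were 6.49 ± 1.11 and 6.89 ± 1.10 (SD, n = 8 each). On the log2 scale the difference, HLU minus Control, was 0.087 with a 95% confidence interval of -0.17 to 0.34 (exact permutation p = 0.447). The interval spans 0.889-fold to 1.27-fold. The log2 SD of Nr3c1 within groups was 0.22, and 16.5% of features of similar level had a smaller one.

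Hsd11b1 also overlapped throughout. Its lowest, median and highest values were 6.04, 7.72 and 14.5 RPKM in Control and 5.00, 6.97 and 12.8 RPKM in HLU. In each group a few bones stood high, Control 2 at 14.5 and Control 1 at 11.2 RPKM, and HLU 2 at 12.8 and HLU 3 at 11.7 RPKM, while HLU 7 and HLU 4 were the lowest of all at 5.00 and 5.73 RPKM. The means were 8.63 ± 2.84 and 8.15 ± 2.87 (SD, n = 8 each), -0.098 apart on the log2 scale (interval -0.55 to 0.36, exact permutation p = 0.668). The gene lies on chromosome 1 at 193221634 to 193264075 (GRCm38), where Lamb3 and 4930570N18Rik overlap it on the other strand. The library kit does not mark strand, so reads from any shared exons cannot be told apart. Dusp1 overlaps Ergic1 and Gm8225, Mt2 overlaps Gm45774, and Fkbp5 overlaps AC154912.1 and Gm22146 on the other strand in the same way. These overlaps are of whole gene spans, and exons were not compared.

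Klf9 had the largest log2 fold change of the set, which did not pass the test. Klf9, a zinc finger transcription factor induced by the receptor, measured 9.04, 13.3 and 21.6 RPKM in Control and 10.6, 16.6 and 27.0 RPKM in HLU at the lowest, median and highest mouse. HLU 4 and HLU 7 lay above all Controls, and the Control median was exceeded by 6 of 8 HLU mice. The means were 13.7 ± 4.52 and 18.1 ± 6.29 (SD, n = 8 each). They were 0.39 apart on the log2 scale with an interval of -0.093 to 0.87, or 0.938-fold to 1.83-fold (exact permutation p = 0.129, adjusted p = 0.744 by limma). The unadjusted call turned on single mice, since without Control 3 or without HLU 2 the log2 fold change was 0.49 and passed 0.05, and over all 16 omissions it ran from 0.30 to 0.49.

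Tsc22d3, which encodes the anti-inflammatory protein GILZ, had the highest level per length of the set. It measured 13.2, 25.2 and 41.2 RPKM in Control and 12.4, 20.8 and 34.3 RPKM in HLU. Both groups held low and high bones, HLU 6 alone lay below every Control, and the log2 fold change of -0.13 (interval -0.65 to 0.39) was small beside that spread (exact permutation p = 0.626). Sgk1, a kinase of salt transport and cell survival, measured 4.85, 7.14 and 11.5 RPKM in Control and 5.93, 8.94 and 11.2 RPKM in HLU. Its log2 fold change was 0.16 (interval -0.23 to 0.55, exact permutation p = 0.408), and no HLU mouse lay outside the Control range.

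Fkbp5, the cochaperone that lowers the receptor's affinity for hormone, measured 5.99, 8.91 and 13.9 RPKM in Control and 6.85, 8.67 and 10.4 RPKM in HLU. All HLU values lay inside the Control range, and the log2 fold change was -0.11 (interval -0.44 to 0.22, exact permutation p = 0.490). Dusp1, the phosphatase that switches off MAP kinases, measured 5.91, 9.04 and 13.3 RPKM in Control and 7.18, 8.34 and 11.2 RPKM in HLU. Its log2 fold change was the smallest of the set at -0.019 (interval -0.35 to 0.32, exact permutation p = 0.907). Zbtb16, a repressor also called PLZF, had the lowest level per length, with 1.44, 3.27 and 5.95 RPKM in Control and 1.31, 3.12 and 8.41 RPKM in HLU. HLU 7 and HLU 4 exceeded every Control and HLU 2 lay below them all. The log2 fold change was 0.16 with a wide interval of -0.58 to 0.90 (exact permutation p = 0.680).

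**Figure D2:**
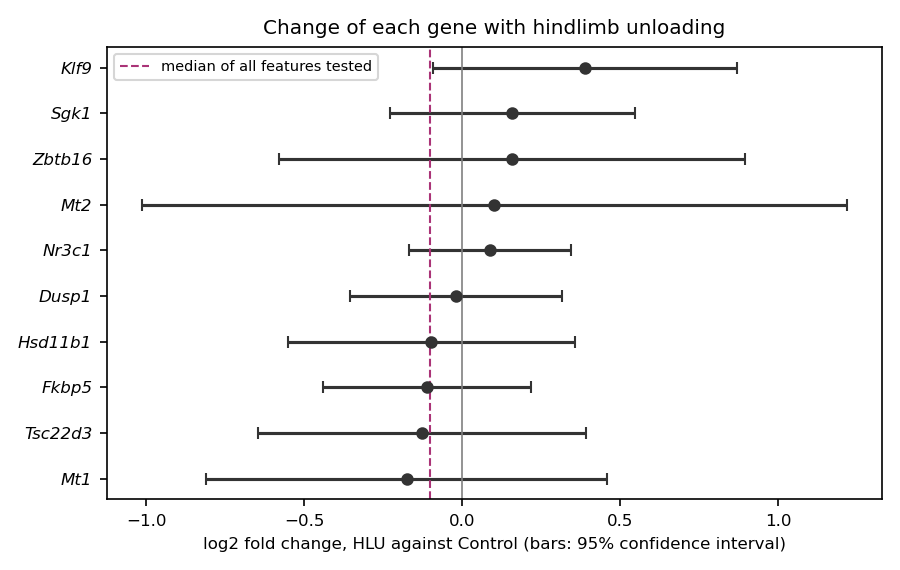
Log2 fold change of each gene, HLU against Control (x axis), with the 95% confidence interval from limma over 8 and 8 mice, 1 gene a row. Every interval crosses 0, from -0.18 for Mt1 to 0.39 for Klf9, and the dashed line marks the median of all 16973 features at -0.10.

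The metallothioneins are small cysteine-rich proteins that bind zinc and copper, and Mt2 varied most of the 10 genes between mice. It measured 1.28, 8.88 and 21.2 RPKM in Control and 3.29, 6.76 and 17.3 RPKM in HLU, a 16.6-fold span over the 16 mice. The low end rests on 14 reads in Control 1 and the upper end on 184 reads in Control 7. Its log2 SD within groups was 1.15, above that of 97.9% of features of similar level. The log2 fold change was 0.10 with an interval of -1.01 to 1.22, so that neither a 0.495-fold nor a 2.32-fold change lay outside it (exact permutation p = 0.862).

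Mt1 measured 3.26, 9.36 and 15.6 RPKM in Control and 3.29, 9.26 and 11.0 RPKM in HLU. A single bone of each group, Control 4 and HLU 4, was near 3.3 RPKM, and the log2 fold change was -0.18 (interval -0.81 to 0.46, exact permutation p = 0.592). Mt2 and Mt1 lie 5513 bases apart on chromosome 8 (GRCm38), and their transcripts share no exact run over 20 bases. The ratio of Mt2 to Mt1 ran from 0.174 through 0.927 to 1.49 in Control and from 0.384 through 1.03 to 1.57 in HLU (exact permutation p = 0.542). The relation between the genes was thus not fixed from bone to bone.

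With the erythroid and granulocyte marker scores as covariates, Mt2 was higher in HLU, with a log2 fold change of 1.06 that passed the unadjusted threshold but not the adjusted one (adjusted p = 0.124 by limma). Those scores differed between the groups by -0.59 (erythroid, exact permutation p = 0.0643) and -0.12 (granulocyte, exact permutation p = 0.610), each being a mean log2 level over its markers, HLU minus Control. Under the same covariates 8.20% of features were higher and 10.6% lower at that unadjusted threshold with 1.2-fold, so the 1 of 10 is near the background, and 83 of the features tested passed the adjusted criterion, where 0 passed without them.

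Across the receptor's machinery, 4 of 20 tested genes were lower in HLU and 0 higher at an unadjusted p under 0.05 with a 1.2-fold change, beside backgrounds of 4.76% and 1.11%. All 4 had an adjusted p of 0.744 by limma. Hsp90aa1, the inducible Hsp90 that holds the receptor in its binding form, went from 34.3 ± 11.3 in Control to 22.9 ± 7.09 RPKM in HLU (SD, n = 8 each). That is -0.58 on the log2 scale (exact permutation p = 0.0270). Hspa8, the constitutive Hsp70, went from 36.5 ± 8.71 to 27.3 ± 7.52 RPKM (log2 fold change -0.43, exact permutation p = 0.0294 over 8 and 8 mice). Stip1, which bridges Hsp70 and Hsp90, was -0.38 on that scale (exact permutation p = 0.0224), and the coactivator Ep300 -0.26 (exact permutation p = 0.0343). The median of the 20 was -0.12, against -0.10 over all features. Hsp90aa1 kept the unadjusted call under median of ratios and quantile normalization, at -0.49 and -0.45, and in all 16 omissions of a mouse. The others lost it under both scalings, Hspa8 at -0.34 and -0.29, Stip1 at -0.29 and -0.24 and Ep300 at -0.17 and -0.15, and Ep300 also in 10 of the 16 omissions. Hspa8, Stip1 and Ep300 each lost it in 4 of 13 alternative settings, these scalings among them.

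Partners of the hormone step did not pass the test without covariates. The mineralocorticoid receptor Nr3c2, which binds the same hormone, had means of 0.461 ± 0.146 in Control and 0.678 ± 0.297 RPKM in HLU (SD, n = 8 each), 0.42 apart on the log2 scale (exact permutation p = 0.0811). H6pd measured 6.75 ± 1.54 and 7.23 ± 1.38 RPKM (log2 fold change 0.10), and Fkbp4, the cochaperone that competes with Fkbp5, 28.8 ± 7.35 and 24.2 ± 5.18 RPKM (log2 fold change -0.23). Hsd11b2 was below the minimum of 0.5 RPKM, at mean levels of 0.112 and 0.0476 RPKM, and was not tested. Nr3c2 passed the unadjusted threshold with the slow muscle score as covariate, at 0.48, and H6pd with the marrow covariates, at 0.34.

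Among the further targets the calls were near the background of 1.11% higher and 4.76% lower. Of 32 further induced genes tested, 0 were higher and 1 lower, Foxo3, a driver of atrophy genes, at 19.9 ± 3.14 RPKM in Control and 15.3 ± 3.61 RPKM in HLU (SD, n = 8 each). It kept that call under both scalings and in all omissions but lost it with the marrow covariates, at -0.25, and was -0.40 on the log2 scale (exact permutation p = 0.0182, adjusted p = 0.744 by limma). The clock gene Per1, a direct receptor target, measured 3.01 ± 1.51 and 2.62 ± 1.29 RPKM (log2 fold change -0.19). The median log2 fold change over the 32 was -0.061. Of 11 tested genes listed as lowered by glucocorticoids, 0 passed in either direction. Whether the hormone lowers each of them in bone was not tested. The most abundant, the collagenase Mmp13 and the collagen chain Col1a1, had log2 fold changes of 0.36 and -0.13. Over 13 alternative settings Mmp13 ran from 0.086 to 0.48 and passed the unadjusted threshold in 1. By NanoString, a count of barcoded probes, the paper reported this gene as higher after HLU.

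Relatives of the 10 are read against the same background of 1.11% higher and 4.76% lower. The 15 phosphatase and immediate early genes gave 1 higher, Dusp10 (4.28 ± 1.34 in Control and 5.91 ± 1.41 RPKM in HLU, SD, n = 8 each, 0.48 on the log2 scale, exact permutation p = 0.0317), and 1 lower, Dusp5 (log2 fold change -0.44, exact permutation p = 0.0325). Neither passed the adjusted criterion, and Dusp5 lost the unadjusted call under both scalings (-0.35 and -0.36) and in 8 of 16 omissions. With those scalings, Dusp5 lost it in 5 of 12 alternative settings. Dusp10 lost it without the 2 smallest libraries (0.43) and in 2 of 16 omissions, at 0.37 without Control 1 and 0.42 without HLU 6. The 10 Klf genes, the 8 tested relatives of Sgk1, Fkbp5, Tsc22d3 and Zbtb16, and the 6 tested metal genes gave 0 in either direction. Klf6 and Klf13, the most abundant of the Klf genes, had log2 fold changes of 0.035 and -0.17. Mt3, the third metallothionein of the cluster, also varied widely, at 7.66 ± 7.35 and 7.52 ± 6.41 RPKM (SD, n = 8 each), 0.032 apart on the log2 scale. Mt4 was too low to test, Mtf1 had a log2 fold change of -0.13, and the zinc exporter Slc30a1 one of -0.16.

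Between mice some of the genes moved together. For each of the 45 pairs, Pearson's r was taken over the 16 mice on log2 values from which each group's mean had been subtracted, with permutations within groups and adjustment over the 45 pairs. By Pearson's r 17 pairs had an adjusted p under 0.05, by Spearman's rho 14, and 14 by both. The sign of r was the same in the Control and the HLU mice in 36 of the 45.

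**Figure D3:**
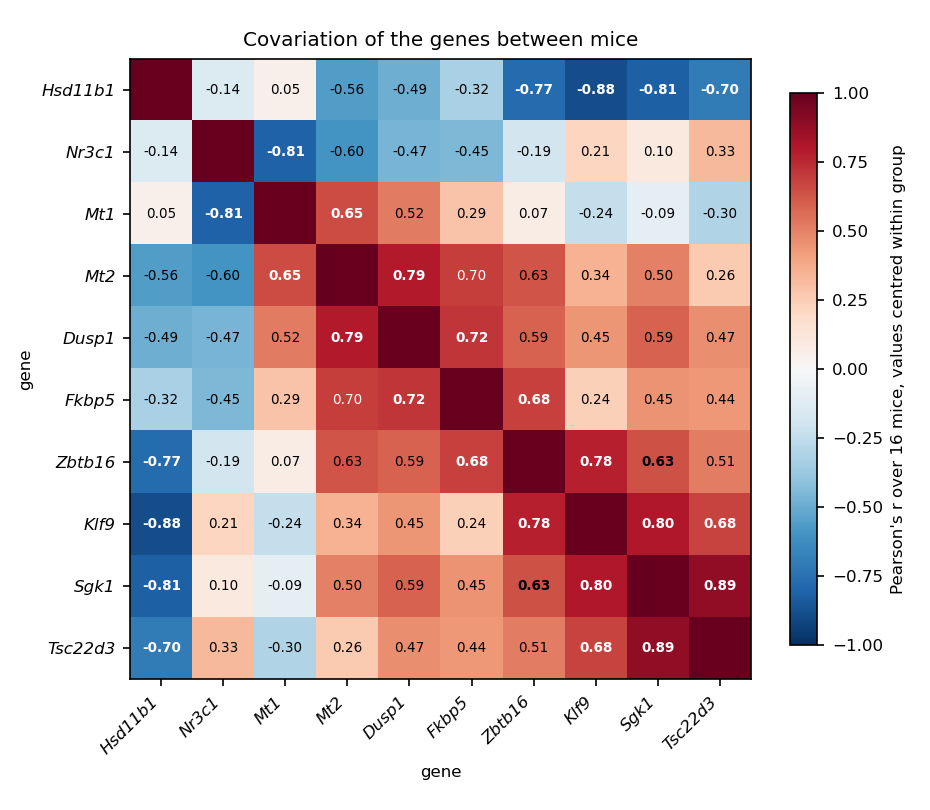
Pearson's r between each 2 genes over 16 mice (both axes list the genes, the colour and the printed number give r), on log2 RPKM centred within each group. Bold marks the 14 pairs with adjusted permutation p under 0.05 by both r and rho: Tsc22d3, Sgk1 and Klf9 are positive with each other, Zbtb16 is positive with Sgk1, Klf9 and Fkbp5 but not in bold with Tsc22d3, all 4 are negative with Hsd11b1, and Mt1 is negative with Nr3c1.

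The closest pair was Tsc22d3 and Sgk1. Their r was 0.89 and rho 0.84 (permutation p = 3.00e-05 and 0.000140, adjusted p = 0.000900 and 0.00210), with an r of 0.90 among Controls and 0.88 among HLU mice. Without Control 3 and HLU 6, the bones farthest out for Tsc22d3, r was 0.87. Among 16972 other features Tsc22d3 was the first in likeness to Sgk1, and Sgk1 the second in likeness to Tsc22d3, after Fam107a, a stress-induced actin-binding protein, at 0.90. Control 3 was the highest bone for both genes at 41.2 and 11.5 RPKM, and HLU 7 the highest HLU bone for both at 34.3 and 11.2 RPKM. Few features followed Tsc22d3 so closely, since r exceeded 0.7 for only 0.530% of them.

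Klf9 moved with both of these genes, and Zbtb16 with Klf9 and Sgk1. Sgk1 and Klf9 had an r of 0.80 (rho 0.76, adjusted permutation p = 0.00486 and 0.0133), Zbtb16 and Klf9 one of 0.78 (rho 0.76), Tsc22d3 and Klf9 one of 0.68 (rho 0.64), and Zbtb16 and Sgk1 one of 0.63 (rho 0.64). Tsc22d3 and Zbtb16 did not pass by either measure, with an r of 0.51 (rho 0.52, adjusted permutation p = 0.0989 and 0.107). Without the pair of bones farthest out, the 4 that passed became 0.74, 0.68, 0.71 and 0.51. Features with an r over 0.7 made up 3.86% for Sgk1, 4.92% for Klf9 and 3.59% for Zbtb16.

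Hsd11b1 ran against these 4 genes. It had an r of -0.88 with Klf9 (rho -0.90, adjusted permutation p = 0.000900 and 0.00135), -0.81 with Sgk1 (rho -0.87), -0.77 with Zbtb16 (rho -0.72) and -0.70 with Tsc22d3 (rho -0.73). Without Control 2 and HLU 2, the bones with the most Hsd11b1 in each group, these were -0.87, -0.79, -0.73 and -0.61. Within Control mice the coefficients with Klf9 and Sgk1 were -0.82 and -0.83, and within HLU mice -0.93 and -0.82. Hsd11b1 was highest in Control 2 and HLU 2, where Klf9 measured 9.19 and 10.6 RPKM, and lowest in HLU 7, where Klf9 measured 26.9 RPKM. Strong negative coefficients were common for some of these genes, since an r under -0.7 was reached by 11.2% of features for Klf9, 10.9% for Zbtb16, 7.02% for Hsd11b1, 4.72% for Sgk1 and 0.283% for Tsc22d3.

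The granulocyte score moved with most of these genes. The score, the mean centred log2 level of the 9 granulocyte markers, had an r of 0.93 with Hsd11b1 (rho 0.94), -0.91 with Klf9 (rho -0.92), -0.82 with Zbtb16 (rho -0.79) and -0.74 with Sgk1 (rho -0.76), with permutation p-values adjusted over 120 relations to marker and technical scores of 0.00120, 0.00120, 0.00360 and 0.0105. Without HLU 2 and HLU 7 these were 0.90, -0.89, -0.67 and -0.67. With Tsc22d3 the score had an r of -0.58, which did not pass. The osteocyte score had the opposite signs, at -0.79 with Hsd11b1, 0.76 with Sgk1, 0.72 with Klf9 and 0.68 with Tsc22d3 (adjusted permutation p = 0.00360, 0.0162, 0.0233 and 0.0405). The score of 7 of 13 slow muscle genes, whose summed level ran from 17.7 to 344 RPKM in Control and from 15.5 to 399 RPKM in HLU, had an r of 0.78 with Zbtb16 and 0.67 with Klf9 (adjusted permutation p = 0.0117 and 0.0454). Without the pair of bones farthest out, the osteocyte relations were -0.68, 0.66, 0.64 and 0.52 and those of slow muscle 0.61 and 0.55. By rho the osteocyte relations of Tsc22d3 and Sgk1 and the muscle relations of Zbtb16 and Klf9 missed 0.05 (adjusted permutation p = 0.0751, 0.0520, 0.0520 and 0.0556). Klf9 was also negative with the macrophage score at -0.73 and the erythroid score at -0.70 (adjusted permutation p = 0.0219 and 0.0337), and Zbtb16 with the B lymphocyte score at -0.71 (adjusted permutation p = 0.0275), which missed by rho (0.0556). The 9 of 10 macrophage markers measured summed to 165 to 340 RPKM in Control and 120 to 341 RPKM in HLU, and the 9 of 10 B lymphocyte markers to 41.1 to 135 and 30.9 to 96.4 RPKM. All relations named here had the same sign in both groups, but some were uneven. In Control and HLU mice, Tsc22d3 had an r of 0.91 and 0.36 with the osteocyte score. Klf9 had -0.34 and -0.94 with the erythroid score, and Zbtb16 -0.34 and -0.97 with the B lymphocyte score. In all, 20 of the 120 relations had an adjusted p under 0.05 by r and 12 by rho.

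Once the erythroid and granulocyte scores were regressed out of both genes, a choice made after the data were seen, r between Tsc22d3 and Sgk1 was 0.83. For Sgk1 and Klf9 it was then 0.54 and for Tsc22d3 and Klf9 0.49. The others were lower, at 0.30 for Zbtb16 and Klf9 and -0.20 for Zbtb16 and Sgk1, and those of Hsd11b1 became -0.39 with Klf9, -0.41 with Sgk1, -0.49 with Tsc22d3 and 0.38 with Zbtb16.

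**Figure D4:**
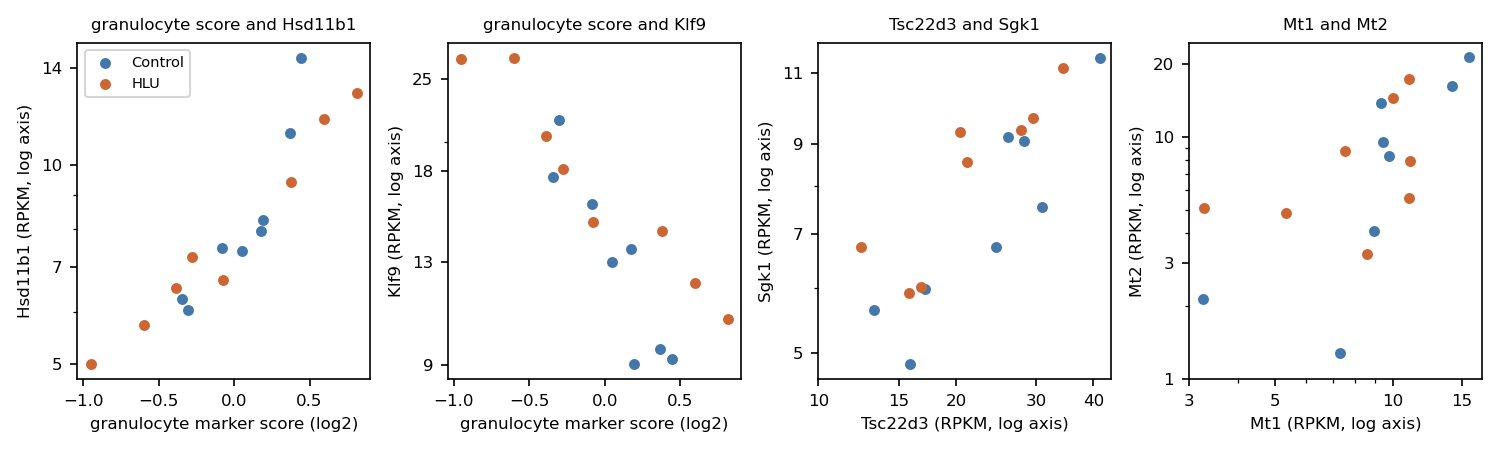
Each point is 1 mouse, Control or HLU by colour: Hsd11b1 and Klf9 RPKM (log axes) against the granulocyte score (log2), Sgk1 against Tsc22d3, and Mt2 against Mt1 (RPKM, log axes). Hsd11b1 rises and Klf9 falls along the score (r = 0.93 and -0.91), and both colours share each trend.

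Dusp1 moved with Mt2 and with Fkbp5, and Mt1 with Mt2 alone. Dusp1 and Mt2 had an r of 0.79 (rho 0.77, adjusted permutation p = 0.00872 and 0.0167), Fkbp5 and Dusp1 one of 0.72 (rho 0.69, adjusted permutation p = 0.0223 and 0.0343), and Mt1 and Mt2 one of 0.65 (rho 0.72, adjusted permutation p = 0.0223 and 0.0167). Fkbp5 and Mt2 had an r of 0.70 that passed by r but not by rho (adjusted permutation p = 0.0259 and 0.0567), and without Control 1 and Control 7 it was 0.43. That pair had an r of 0.89 in Control and 0.12 in HLU. Mt1 did not pass with Dusp1 or Fkbp5, at 0.52 and 0.29 (adjusted permutation p = 0.0989 and 0.401). Zbtb16 followed these genes too, at 0.68 with Fkbp5 (rho 0.65), which passed by both measures, and at 0.63 with Mt2 and 0.59 with Dusp1, which passed by r alone (adjusted permutation p = 0.0259 and 0.0378). In likeness to Mt1, Mt2 ranked 2594 of 16972 features. Without the pair of bones farthest out, r was 0.76 for Dusp1 and Mt2, 0.71 for Fkbp5 and Dusp1 and 0.66 for Mt1 and Mt2. With the erythroid and granulocyte scores regressed out, r was 0.34 for Dusp1 and Mt2, 0.24 for Fkbp5 and Dusp1, -0.16 for Fkbp5 and Mt2, -0.21 for Zbtb16 and Mt2 and 0.12 for Zbtb16 and Dusp1, while Mt1 and Mt2 had 0.64 and Fkbp5 and Zbtb16 0.78.

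Nr3c1 ran against the metallothioneins. Its r was -0.81 with Mt1 (rho -0.80, adjusted permutation p = 0.00472 and 0.00562), -0.79 without Control 1 and HLU 4 and -0.69 with the marrow scores regressed out, and -0.60 with Mt2, which did not pass (adjusted permutation p = 0.0524). The receptor was lowest in Control 7, the bone with the most Mt1 and Mt2, and highest in HLU 4, which had the second lowest Mt1. With the hormone-induced genes Tsc22d3, Sgk1 and Klf9 the receptor's r was 0.33, 0.098 and 0.21, and none of these passed. With the marrow scores regressed out they were 0.65, 0.32 and 0.20. The r of Nr3c1 and Tsc22d3 was 0.082 in Control and 0.62 in HLU.

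These genes moved with a score of feature length, where length is the divisor read from the deposited values. The score, defined after the data were seen, is the mean centred log2 level of 2153 features of 500 to 1500 bases minus that of 3029 features of at least 8000 bases, and it was lowest in Control 1 at -0.29 and highest in Control 7 at 0.24. Its r was 0.87 with Mt2, 0.76 with Fkbp5, 0.74 with Dusp1, 0.70 with Mt1 and -0.75 with Nr3c1 (adjusted permutation p = 0.00360, 0.0233, 0.0260, 0.0233 and 0.0219), and by rho those of Mt2 and Fkbp5 alone passed among the 5. Without Control 1 and Control 4 the 5 coefficients were 0.68, 0.57, 0.46, 0.57 and -0.48. Of these 5, Mt2 and Mt1 had lengths of 556 and 1171 bases, Dusp1 5142, Fkbp5 8811 and Nr3c1 17949. Klf9, Hsd11b1, Zbtb16, Tsc22d3 and Sgk1 had lengths of 3263, 4331, 5100, 8051 and 10234 bases. Their r with the score was 0.049, -0.21, 0.44, 0.068 and 0.28, and none of these passed. With the score regressed out, r between Mt1 and Mt2 was 0.13, between Dusp1 and Mt2 0.44, between Fkbp5 and Dusp1 0.35 and between Nr3c1 and Mt1 -0.60, while that of Tsc22d3 and Sgk1 was 0.91 and that of Hsd11b1 and Klf9 -0.90. Mt2 also followed the adipocyte score at 0.80 and the endothelial score at 0.77 (adjusted permutation p = 0.00634 and 0.00360). The adipocyte markers, 6 of 9, summed to 409 to 788 RPKM in Control and 487 to 839 RPKM in HLU, and the 8 of 8 endothelial markers to 68.0 to 97.2 and 72.0 to 109 RPKM. The part of these scores in the correlations was not tested beyond these values.

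The nearest features of each gene, over the 16 mice and among 16972, are given as a description. They were G6pdx (r = 0.97), which supplies cytosolic NADPH, and the leukocyte regulator Arhgdib (0.96) for Hsd11b1. Klf9 was followed by Ank2 (0.96), an ankyrin of excitable membranes, and Kif21a (0.94), a kinesin. The nearest to Zbtb16 were the metabolic regulator Klf15 (0.94), itself induced by glucocorticoids, and Sdhd (0.92), a subunit of succinate dehydrogenase.

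Nr3c1 was followed by the lipid phosphatase Mtm1 (0.94) and by Tiparp (0.94), Sgk1 by Tsc22d3 and then Sertad4 (0.88), Dusp1 by the anion exchanger Slc26a6 (0.86) and Rtp3 (0.86), and Fkbp5 by the metabolic enzyme Dlst (0.87) and the methionyl-tRNA synthetase Mars (0.86). The nearest to Mt1 were Gm11599 (0.96) and the mitochondrial importer subunit Timm17b (0.96), and to Mt2 the complex I subunit Ndufa2 (0.96) and Cdpf1 (0.95). Features with an r over 0.7 made up 12.5% for Mt1, 12.1% for Mt2 and 10.7% for Hsd11b1, so a high coefficient was common for these 3.

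Some partners followed genes of the set and others did not, and these coefficients were given no test. Nr3c2 had an r of 0.93 with Klf9, 0.81 with Zbtb16, 0.76 with Sgk1 and -0.82 with Hsd11b1. Fkbp4 had one of -0.90 with Nr3c1, 0.88 with Mt1, 0.76 with Mt2 and 0.68 with Dusp1. H6pd had one of 0.77 with Mt1 but -0.30 with Hsd11b1, the enzyme it supplies. Mt3 had one of 0.85 with Mt1, 0.79 with Mt2 and -0.71 with Nr3c1. Its lowest value, 0.114 RPKM in HLU 4, rested on 1 read, and these coefficients were not repeated without that mouse. Mtf1 had low ones with the metallothioneins, 0.13 with Mt1 and -0.21 with Mt2, against 0.62 with Hsd11b1 and -0.64 with Klf9. Slc30a1 had -0.41 with Mt1 and -0.080 with Mt2, and the highest of Per1 was 0.63 with Dusp1. Of the 32 other induced genes, the median r was 0.29 with Tsc22d3 and 0.34 with Sgk1, where all features had medians of -0.0074 and -0.032. With Fkbp5, Nr3c1, Klf9, Zbtb16, Dusp1 and Mt2 the 32 had medians of 0.17, 0.13, 0.12, 0.090, 0.060 and 0.010, where all features had 0.037, 0.0066, -0.13, -0.089, 0.019 and 0.033. With Mt1 and Hsd11b1 they had medians of -0.15 and -0.16, against -0.022 and 0.043.

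The same bones recurred at the ends of the ranges. Control 1 was among the 4 lowest of the 16 for 8 genes, all but Nr3c1 and Hsd11b1, for which it was among the 4 highest. Control 2 was among the 4 lowest for 7. HLU 7 was among the 4 highest for 7 genes and among the lowest for Hsd11b1, and Control 3 showed the same for 6. High bones thus came from both groups, whereas the bones low for most genes were Control 1 and Control 2. Control 2 was the smallest library, and Control 1 had the lowest length score. Among HLU mice, HLU 3 was among the 4 lowest most often, for 4 genes.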

How the data were processed

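RNA of marrow-flushed femoral cortical bone was sequenced from 8 Control and 8 HLU mice with a kit that does not mark strand. Per the labels' processing notes and the methods, the authors aligned reads with TopHat2 to mm9 and tested with DESeq2; the annotation and the counter are not given in the sources used here. The deposited values are RPKM per gene symbol, a unit read from the values: in all 16973 kept features they were whole multiples of what 1 read is worth (within 0.02 reads). This gave the library divisors, feature lengths and read numbers used here. A feature's length is the smallest whole divisor that makes its values whole reads. It was not taken from an annotation and may differ from the length of a transcript.

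Groups came from sample titles. The 10 genes and all lists were chosen with earlier results of these data known. The 16973 features whose mean reached 0.5 RPKM entered limma 3.58.1 (R 4.3.3) as log2(RPKM + 0.1) values (trend, Benjamini-Hochberg over all of them), a scale on which changes of low genes are understated. Confidence intervals, at 95%, are limma's. Single genes had a two-sided exact permutation test over 12870 splits, whose smallest p is 0.000155. Correlations used 100000 two-sided permutations within groups (smallest p 1e-05). The scripts were tested on simulated data. P-values measure the spread between mice. Lanes are not in the labels, so lane and group cannot be told apart. Genes were named by rule: the 10; list genes past an unadjusted p of 0.05 with 1.2-fold, otherwise the 2 of highest mean; the 2 features nearest to each of the 10; and direct partners. Medians over lists are descriptions with no test. Positions and overlaps are from GRCm38, not the build aligned to. No fast muscle gene of the planned list was found, and muscle is covered by 7 slow muscle genes added after the data were seen. Alternatives (11 planned, 2 added, 16 omissions of 1 mouse) covered the pseudocount, filter, scaling, replicate block, covariates, voom on recovered reads and libraries.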

Additional observations from a re-analysis of the deposited data

Results flagged for a closer look

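Of 20 groups of 8 mice examined for a sample far from the others (10 genes in Control and in HLU), 1 had such a sample: Dusp1 in HLU 7, at 11.2 RPKM, where the gap to the next HLU mouse was 0.585 of the group's range and the critical value is 0.526. Chance marks about 1 in 20 groups. HLU 7 was also among the 4 highest of the 16 mice for Fkbp5, Tsc22d3, Zbtb16, Sgk1, Mt2 and Klf9.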

How the results depend on the processing

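Of 290 values of the 10 genes under alternatives, 259 kept their direction and their side of an unadjusted p of 0.05, 27 turned and 4 passed it. Dusp1 was 0.073 under median of ratios, 0.092 under quantile normalization, 0.22 with marrow covariates, 0.0063 with the slow muscle score and 0.057 with the length score. Fkbp5 was 0.0053 under quantile normalization and 0.18 with marrow covariates, Hsd11b1 0.025 under quantile normalization and 0.046 without the 2 smallest libraries, where Mt2 was -0.038. With marrow covariates Nr3c1 was -0.10 and Mt1 0.31, and Mt2 passed at 1.06. Klf9 passed with the slow muscle score at 0.45. With 1 mouse left out, Dusp1 ran from -0.091 to 0.074, Hsd11b1 from -0.20 to 0.017, Mt1 from -0.38 to 0.000575, Mt2 from -0.23 to 0.33, Zbtb16 from -0.019 to 0.35 and Klf9 from 0.30 to 0.49, passing without Control 3 and without HLU 2. The cause was not tested. Of the 10 genes, the number called higher (0) was 1 with marrow covariates and 1 with the slow muscle score, and 0 to 1 over omissions, and the number called lower was 0 in all of these. Of the list genes named, Fkbp4, Per1, Klf6 and Klf13 turned with marrow covariates, at 0.093, 0.17, -0.12 and 0.047, Col1a1 under quantile normalization at 0.012, Klf6 without the 2 smallest libraries at -0.0047, with the length score at -0.033 and between -0.029 and 0.11 over omissions, and Mt3 at a pseudocount of 0.01 (-0.029), without the 2 smallest libraries (-0.18) and between -0.33 and 0.66 over omissions.

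Over all features, the number higher in HLU (188) was 391 without a filter, 106 at a minimum of 2 RPKM, 381 under median of ratios, 460 under quantile normalization, 1392 with marrow covariates, 108 without the 2 smallest libraries, 432 with the slow muscle score, 298 with the length score and 117 to 363 over omissions, lowest without HLU 7 and highest without HLU 2. Those lower (808) were 395, 364, 1791 and 1519 under median of ratios, quantile normalization, marrow covariates and slow muscle score, and 471 to 1385 over omissions of the same mice. Those past the adjusted criterion (0) were 1 without a filter, 1 without trend, 83 with marrow covariates, 1 with the slow muscle score and 0 to 1 over omissions. The median r of the 45 pairs, 0.29, ran from 0.12 to 0.41 over 7 alternatives. Replicate numbers did not pair the mice, since 3 of 8 pairs correlated above 0.1 (range -0.17 to 0.51) and 1 Control correlated best with its own number. With the replicate block the lowest adjusted p of the 10 was 0.725, their median stayed at 0.034 and no call changed. Of the 10 genes, Mt2, at 14 reads in 1 library, is the one depth limits most.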
